A study of Mus musculus with 16 samples.

Results

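In early Bcl11b KO Th2 cells, 817 stretches of the mouse genome held islands of histone H3 acetylated at lysine 27 (H3K27ac) that the lists of no other cells in the study held. The islands of the 8 H3K27ac lists were merged where they overlapped or touched, which gave 35909 regions in all. The 817 regions, 2.28% of the total, held an island in both early KO lists and in none of the other 6. They cover 1.91 Mb of the 171.1 Mb that the merged regions take up. Since the H3K27ac lists chose them, their H3K27ac values are a description and carry no test. DNase-seq of the same 4 kinds of cells took no part in the choice and was tested.

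The cells were naive CD4 T cells of Bcl11b[fl/fl]-CreERT2 mice on a C57BL/6 background, and all groups share this genotype. Their sort is given as CD4+CD44high, although CD44 is low on naive cells. Early KO cells were grown for 4 days under Th2 conditions with 4-OHT, the tamoxifen metabolite that lets CreERT2 cut the floxed gene. Early WT cells had the same 4 days without 4-OHT. Late KO cells had 4 days under Th2 conditions, a rest of 1 day in IL-2 medium and 4 further days under Th2 conditions with 4-OHT. Late WT cells went through the same steps with no 4-OHT. Each group has 2 libraries of each assay, 16 libraries in all. No WT cells met 4-OHT, so loss of Bcl11b and exposure to the drug cannot be told apart. Late KO cells are not early KO cells grown on, since they met 4-OHT in the second Th2 culture. Between the KO stages, time in culture and the stage of exposure cannot be told apart either. The promoter that drives CreERT2 is not given in the sources used here, and the loss of Bcl11b and the markers of the cells were not analysed here.

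H3K27ac is laid down by the acetyltransferases p300 and CBP and marks promoters and enhancers in use. DNase I cuts DNA that is not wrapped in nucleosomes, so DNase-seq maps the open sites that transcription factors occupy, often inside an H3K27ac region. Bcl11b is a zinc-finger transcription factor that T cells need to become and remain T cells, and it can recruit chromatin modifiers. In Th2 cells, the helper cells that make IL-4, IL-5 and IL-13, it acts beside GATA3, the factor that sets Th2 identity.

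The deposited lists give islands, which are runs of enriched 200-bp windows, with a score from the authors' caller and no read counts. Depth is therefore unknown, and a region without an island is one that a list does not hold, not one shown to lack the mark. In bulk cells, fewer cells with the mark and less of it per cell cannot be told apart. The H3K27ac lists were alike in length, with 26548 to 32112 islands, and the longest was that of early KO replicate 1. The DNase lists were not. They held 24286 and 37956 islands in early KO, 37525 and 39736 in early WT, 18812 and 17397 in late KO, and 27416 and 36963 in late WT. The early KO pair thus differed from each other, and both late KO lists were shorter than all others. For that reason DNase results are given for the lists as deposited and for the 17397 islands of highest score in each, the length of the shortest list. Regions are named by position on mm9.

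The 817 regions were narrow and ranked low among the H3K27ac islands of the lists that held them. Their median width was 2200 bp, with quartiles of 1600 and 2800 bp and extremes of 600 and 19000 bp. All merged regions had a median of 3200 bp, the 18384 regions found in all 8 lists one of 4600 bp, and the 771 regions held by both early WT lists alone one of 3200 bp. The 376 regions of both late KO lists alone were as narrow, with a median of 2000 bp. The 492 regions of both late WT lists alone had the same median of 2200 bp. Ranked by score within its list, where 0 is the lowest island and 100 the highest, the median region stood at percentile 19.8 in early KO replicate 1 and at 10.9 in replicate 2. The corresponding medians over all regions were 52.0 and 51.6. Low ranks were not particular to early KO. In replicates 1 and 2 of their own lists, regions of early WT alone had median percentiles of 13.9 and 17.0. Those of late KO alone had 10.3 and 12.5, and those of late WT alone 9.17 and 18.9. In replicate 1, 556 of the 817 regions (68.1%) lay below percentile 25, and in replicate 2 this held for 716 (87.6%). Only 2 regions were above percentile 50 in both.

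**Figure D1:**
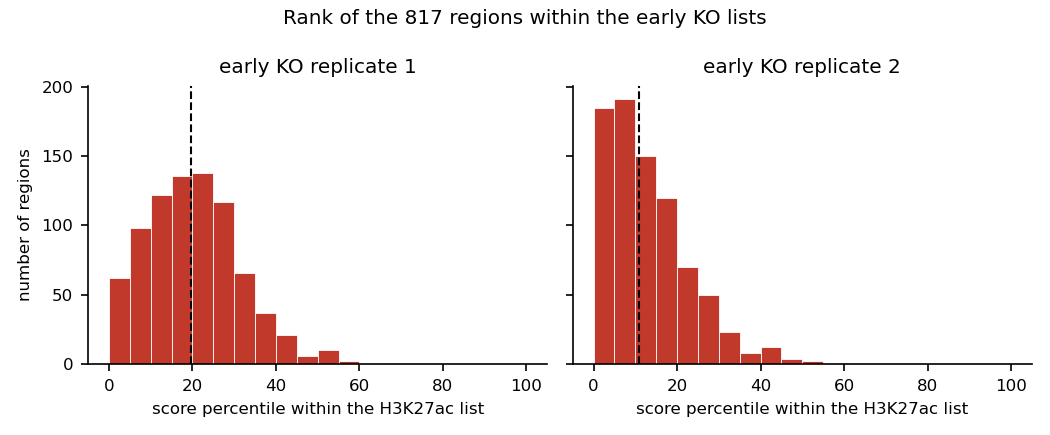
Number of the 817 regions (vertical axis) by the percentile of their score within the H3K27ac list of each early KO replicate (horizontal axis, 0 the lowest island). The dashed lines mark the medians of 19.8 in replicate 1 and 10.9 in replicate 2, and both distributions crowd at the low end.

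Both replicates placed their islands over much the same bases. The median share of a region covered in both early KO lists was 75%, with a median of 1600 bp covered in replicate 1 and 1800 bp in replicate 2. The island was the wider one in replicate 2 in 451 regions, in replicate 1 in 230, and of equal width in 136.

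Regions just outside the rule looked similar. Another 494 regions were held by both early KO lists and by exactly 1 other list. Their median width was 2400 bp and their median percentiles were 21.8 in early KO replicate 1 and 12.7 in replicate 2. The 1 other list was early WT replicate 2 in 178 of them, late KO replicate 2 in 133, late KO replicate 1 in 70, late WT replicate 2 in 62, early WT replicate 1 in 48 and late WT replicate 1 in 3. Early WT replicate 2 and late KO replicate 2 were the most frequent. In these single lists the islands ranked at median percentiles between 3.50 and 10.2. A further 1139 regions were held by the list of early KO replicate 1 alone, at a median width of 1400 bp and percentile of 6.82. Only 140 were held by that of early KO replicate 2 alone, at 2000 bp and percentile 4.26. Most of the 817 regions thus sit close to the level at which an island enters a list at all, and a smaller set stands well above it.

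That smaller set is led by chr3:93424601-93437800. This region is 13.2 kb wide and ranked at percentile 74.2 in early KO replicate 1 and 61.5 in replicate 2. No DNase list held an island in it. Its neighbour chr3:93444001-93447600, ranked at 54.1 and 45.8 and had 0.8 kb of DNase islands in early KO replicate 2 and none in the other 7 libraries. Both regions thus combined a high H3K27ac rank with little or no listed open chromatin. The widest region of all, chr12:109116801-109135800, spans 19.0 kb. Its percentiles were 31.5 and 50.4, and it too had no DNase island in any list.

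Some of the other high-ranking regions had DNase islands in early WT lists as well. The region chr7:35919001-35926200 is 7.2 kb wide, at percentiles 59.7 and 46.9. Its DNase islands covered 1.2 and 2.4 kb in early KO and 0.8 and 1.2 kb in early WT, and none in the 4 late libraries (early KO against early WT, limma adjusted p = 0.476). At chr4:100733801-100736400, with percentiles 50.4 and 47.2, DNase islands covered 1.0 and 1.4 kb in early KO and 1.6 and 1.2 kb in early WT, again with none late (adjusted p = 0.967). With DNase lists of equal length, this region was called higher in early KO, at 3.08 on the log2 scale (adjusted p = 0.00393). In the lists as deposited, the early groups touch or overlap at both, and the late libraries stand apart at 0. The 3.6-kb region chr9:51175001-51178600, at percentiles 50.3 and 47.3, was open in 7 of 8 libraries. It had 0.6 and 1.8 kb in early KO, 0.4 and 0.6 kb in the early WT pair, 0 and 0.8 kb in late KO, and 0.6 and 1.0 kb in late WT (adjusted p = 0.70 for early KO against early WT). The ranges of the 4 groups overlap or touch there. By contrast, the isolated region chr18:81425801-81428000, 88 kb from any island of the other 6 lists, ranked at 51.3 and 44.4 and held 0.4 kb of DNase islands in early KO replicate 2 alone.

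The regions were spread along the genome. The median distance to the nearest island of the other 6 H3K27ac lists was 13 kb. In 58 regions that distance was at most 1 kb, and in 134 (16.4%) it was over 50 kb. An example of the near ones is chr2:156693801-156700800, 7.0 kb wide and 0.4 kb from another island. The rule allows no overlap with islands of the other 6 lists, so some distance is built in. The nearest region held by all 8 lists was 26.6 kb away at the median, and 28.4% of the 817 regions had one within 10 kb. Regions of early WT alone lay closer, at a median of 12.6 kb with 45.0% within 10 kb, and those of late KO alone at 22.6 kb with 30.3%. By chromosome, the share of merged regions that belonged to the 817 ran from 1.31% on chromosome 11 (35 of 2672) to 3.14% on chromosome 16 (44 of 1400), leaving out chromosome Y with 0 of 13.

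A few of the regions came in runs. The median distance to the next of the 817 was 534 kb, and 139 regions (17.0%) had another within 50 kb. Runs of at least 3 with gaps of at most 50 kb, a rule chosen after the data were seen, numbered 5 and held 23 regions. In the longest, chr6:99199001-99371800, 8 of the 817 regions lie among islands shared with other lists. The strongest of the 8 lay 24.6 kb from any island of the other 6 lists. Over its 172.8 kb, H3K27ac islands covered 78.2 and 90.2 kb in early KO, 31.8 and 39.2 kb in the early WT pair, 16.8 and 15.8 kb in late KO, and 2.8 and 7.6 kb in late WT. Early KO was above early WT and late KO above late WT in both libraries, and every early library was above every late one. The DNase islands of the same stretch covered 10.4 and 20.8 kb in early KO, 14.2 and 25.4 kb in the early WT pair, 2.8 and 4.6 kb in late KO, and 4.2 and 8.2 kb in late WT. Here KO and WT overlap at both stages, and the early libraries again exceed the late ones. The strongest of its 8 regions, chr6:99285401-99291800, ranked at 49.7 and 50.8 and had 0.4 and 0.2 kb of DNase islands in early KO, 0.8 and 1.0 kb in the early WT pair, 0 and 0 kb in late KO, and 0 and 0.4 kb in late WT (adjusted p = 0.704 for early KO against early WT).

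**Figure D2:**
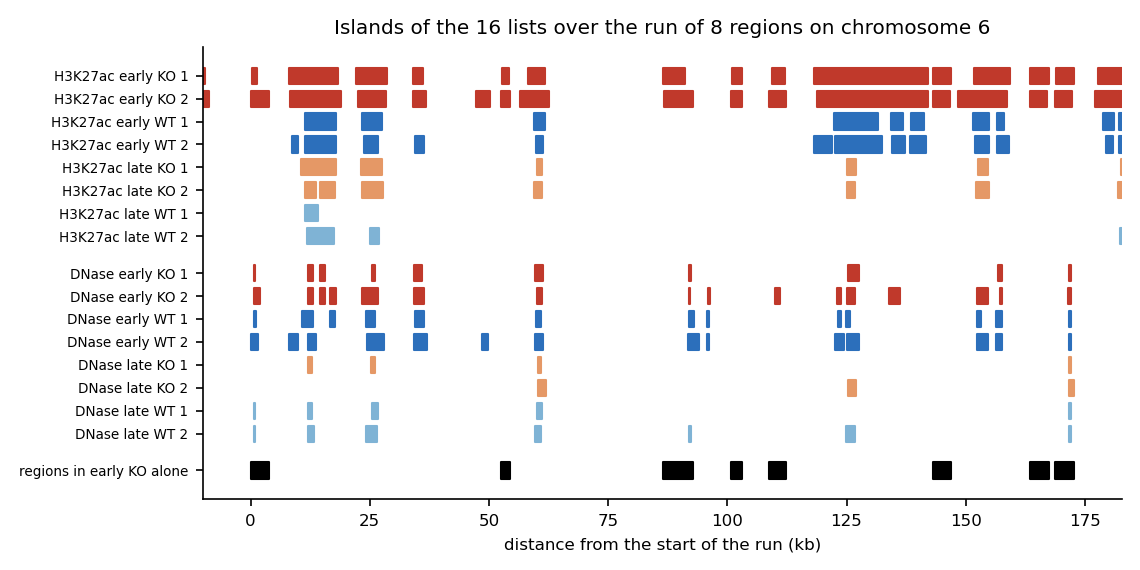
Islands of the 8 H3K27ac lists and the 8 DNase lists (rows, bars to scale) over the run on chromosome 6, by distance in kb from its start. The black bars are the 8 regions in early KO alone, which lie among islands that early WT and late KO also hold, while H3K27ac covered 78.2 and 90.2 kb in early KO and 31.8 and 39.2 kb in early WT.

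A second run had no such shared islands. Over chr14:48871001-48924000, 53 kb with 5 of the regions, H3K27ac islands covered 13.8 kb in each early KO library and nothing in the other 6. It includes chr14:48898401-48907200, 8.8 kb wide at percentiles 67.6 and 59.9, and chr14:48871001-48874200, 3.2 kb wide at 52.0 and 44.4. DNase islands in the run were few, with 0 and 1.8 kb in early KO, 0 and 0.6 kb in early WT, and none late. The run chr7:119381401-119444000 was similar in H3K27ac, with 5.8 and 6.0 kb in early KO alone. Its DNase islands covered 3.2 and 4.8 kb in early KO and 0 and 3.0 kb in early WT, with none late. Both early KO libraries were thus above the early WT pair there. In chr16:38378601-38433600 the H3K27ac islands took up 10.4 and 11.2 kb in early KO against 1.6 and 1.8 kb in the early WT pair, 1.6 and 1.8 kb in late KO, and 1.6 and 1.6 kb in late WT. Early KO stood apart from the other 6 libraries, which were level. In chr11:52112601-52166000 they took up 14.8 and 17.2 kb in early KO and 8.4 and 9.0 kb in early WT, against at most 1.0 kb in each late library. The last of these runs had DNase islands over 8.0 and 8.0 kb in early KO, 8.4 and 9.2 kb in the early WT pair, 0.6 and 0.4 kb in late KO, and 4.0 and 5.4 kb in late WT. Open chromatin there was thus much the same in both early groups.

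Across the 817 regions, open chromatin was less common than at H3K27ac regions at large, and in the lists as deposited it was mostly early. A DNase island lay in 221 and 436 of the regions (27.1% and 53.4%) in early KO and in 242 and 278 (29.6% and 34.0%) in early WT. In late KO the counts were 56 and 52 (6.85% and 6.37%), and in late WT 78 and 139 (9.55% and 17.0%). The 2 early KO libraries lie on either side of the early WT pair, so the early groups overlap, while every late library is below every early one. Over all 35909 regions the shares were 50% and 66.6% in early KO, 65.0% and 68.5% in early WT, 40.9% and 38.5% in late KO, and 55.2% and 65.6% in late WT. The late shares of the 817 regions were therefore far below those of the whole set in each library.

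With DNase lists of equal length, the early KO lists held more of the regions than any other. An island lay in 111 and 125 regions (13.6% and 15.3%) in early KO, against 51 and 47 (6.24% and 5.75%) in early WT. Late KO had 44 and 52 (5.39% and 6.37%) and late WT 30 and 30 (3.67% in each). Over all regions the same lists covered 39.3% and 39.7% in early KO, 40.0% and 40.8% in early WT, 38.6% and 38.5% in late KO, and 39.8% and 40.0% in late WT, so the libraries were level there. At equal length early WT overlaps late KO and lies above late WT, so the early KO pair alone stands above all late libraries by a wide margin. At equal length early KO and early WT do not overlap in the 817 regions, and they do in the lists as deposited. The difference in shares itself was not tested.

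Sets of regions chosen by the same kind of rule in other groups were set beside these. At equal length, regions with H3K27ac in late KO alone had DNase islands in 14.4% and 15.4% in late KO, against 2.93% and 3.19% in late WT, 3.72% and 3.19% in early KO, and 1.60% and 2.13% in early WT. At that length, regions of early WT alone seldom held a DNase island in any library. The shares were 0.389% and 0.259% in early KO, 0.908% and 1.17% in early WT, and at most 0.649% in the late libraries. In the lists as deposited, the regions of early WT alone had 1.43% and 8.82% in early KO and 18.7% and 23.5% in early WT. They were thus open less often in the other early genotype than the 817 regions, which had 29.6% and 34.0% in early WT.

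**Figure D3:**
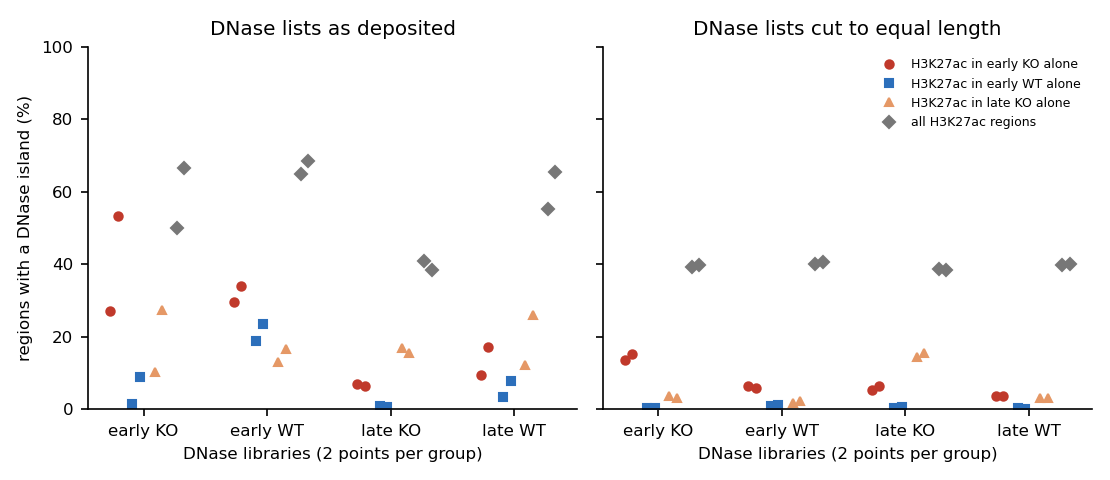
Share of regions with a DNase island (vertical axis, %) in each of the 2 libraries of the 4 groups (horizontal axis), for regions with H3K27ac in early KO alone, in early WT alone, in late KO alone and for all regions. With lists as deposited (left) the early KO and early WT points of the 817 regions overlap, and at equal list length (right) the early KO points of 13.6% and 15.3% lie above the other 6.

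Where open chromatin was found, it lay at the middle of the regions. The central 200 bp were within a DNase island in 19.0% and 38.3% of regions in early KO and in 20.7% and 24.7% in early WT. In late KO this was 4.84% and 4.77%, and in late WT 7.16% and 12.3%. At 5 to 10 kb from the centre, coverage was 2.80% and 4.48% in early KO, 3.85% and 5.61% in early WT, 1.95% and 2.19% in late KO, and 3.35% and 4.31% in late WT. All 8 libraries were thus higher at the centre than in the flanks. At equal list length the central values were 10.04% and 11.6% in early KO and 4.96% and 4.71% in early WT. For H3K27ac itself the rule sets the centre, at 96.0% and 99.0% in early KO and 0% elsewhere. The flanks at 5 to 10 kb had 10.3% and 10.8% in early KO, against 6.23% to 7.96% in the other 6 libraries.

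**Figure D4:**
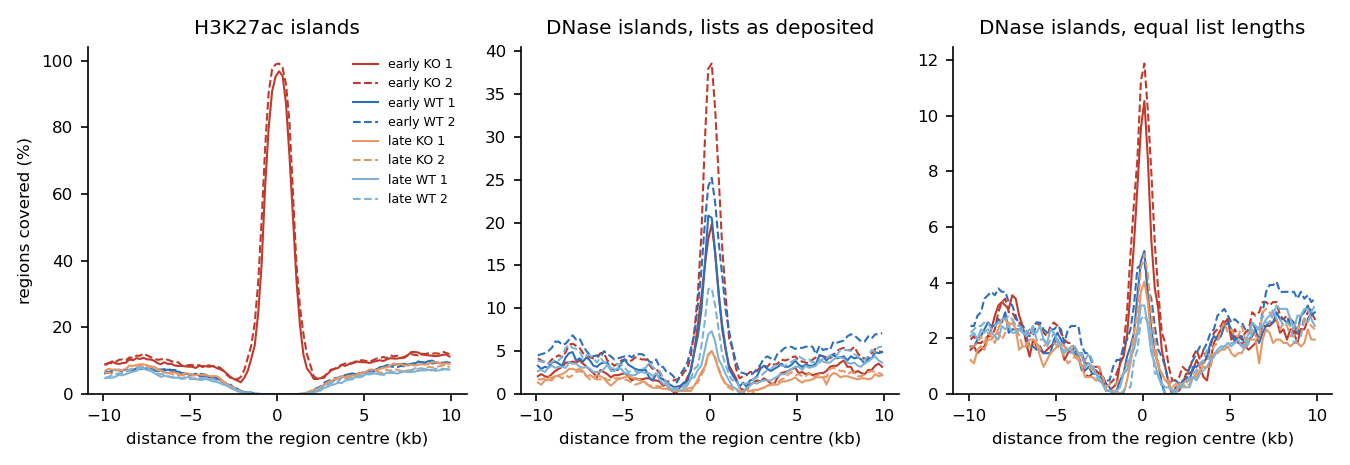
Share of the 817 regions covered by an island (vertical axes, %, scaled separately) by distance from the region centre in kb, for H3K27ac (left), DNase lists as deposited (middle) and DNase lists of equal length (right), 1 line per library. In the lists as deposited DNase coverage peaks within 100 bp of the centre in every library. At equal length one late WT library has no peak there, and the centre reaches 10.04% and 11.6% in early KO against 4.96% and 4.71% in early WT.

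Each region can also be described by which DNase lists held it. No list did in 331 regions (40.5%), against 21.0% of all regions. In sets held by 1 other group alone this share was 71.2% for early WT, 51.6% for late KO and 46.1% for late WT. Regions held by all 4 KO lists and no WT list had 16.6%. All 8 DNase lists held 26 of the 817 (3.18%), against 32.5% of all regions. An early list but no late one held 321 (39.3%, against 11.3%), and a late list but no early one held 4 (0.490%, against 3.16%). In the lists as deposited, early lists thus held these regions more often than late lists did. All 4 early lists and no late one held 40 (4.90%, against 0.872%), and the reverse pattern was not seen in the 817 regions and made up 0.078% of all. Early KO replicate 2, the longer of its pair, was the only DNase list at 119 regions (14.6%, against 2.47%).

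DNase islands in both early KO lists and in neither early WT list were found in 51 of the 817 regions (6.24%), against 1.41% of all regions. The opposite pattern, both early WT lists and neither early KO list, was found in 18 (2.20%), against 4.69% of all regions. At equal list length the counts were 47 (5.75%, against 2.49%) and 4 (0.490%, against 2.56%). Of the 51 regions, 45 had no late DNase island either. For the late groups the counts were small or below those of all regions. Both late KO lists and neither late WT list held 4 (0.490%, against 0.526%), and both late WT lists and neither late KO list held 32 (3.92%, against 13.1%).

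Regions with and without open chromatin were similar in the width and rank of their H3K27ac islands. The 331 regions without any DNase island had a median width of 2000 bp and median percentiles of 17.8 and 9.56 in early KO replicates 1 and 2. The 486 with at least 1 had 2200 bp and percentiles of 21.2 and 11.9, and the 178 held by 4 or more DNase lists had 2000 bp and 20.2 and 12.8.

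Differences in DNase coverage were tested over all regions with limma, on log2 of the kb covered plus 0.2 kb, and called at a Benjamini-Hochberg adjusted p under 0.05. Of the 817 regions, 342 had a DNase island in at least 2 of the 8 libraries and were tested, among 25850. Between early KO and early WT, 42 of the 817 regions were called higher in early KO, against 1.35% of all regions tested, and 9 were called lower, against 2.55%. All 42 had no DNase island in either early WT list, and 41 passed the filter through the early KO pair alone, so their share of the 342 is no measure. With no filter, 41 of all 817 regions (5.02%) were called higher, against 0.808% of the 35909, and 10 (1.22%) lower, against 1.48%. At equal list length, where 17362 regions and 110 of the 817 were tested, 42 were called higher, against 3.69%, and 4 lower, against 3.16%. The same filter applied there. At that length, 47 of the 817 had islands in both early KO lists and neither early WT list, which is enough to pass it. The share of the 110 that was called is therefore no measure either. Those 42 are largely other regions, since 8 of the first 42 could be tested at equal length and all 8 were called. The calls thus rest on presence in both libraries against absence in both, which also leaves the spread of the absent group to the floor of 0.2 kb and to scaling.

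The 42 regions had 0.995 kb of DNase islands in early KO on average, with means of 2 libraries from 0.4 to 2.2 kb. All were at 0 in both late WT lists and 41 in both late KO lists, and their adjusted p-values ran from 0.0165 to 0.0350. The first of them, chr1:157953801-157956400, had 1.8 and 2.0 kb in early KO and none in the other 6 libraries (adjusted p = 0.0165). Its H3K27ac island ranked at percentiles 30.2 and 12.8. Next came chr14:64025401-64030600, with 1.6 and 1.8 kb in early KO, and chr1:121285601-121288200, with 1.4 and 2.0 kb, which lies 100 kb from any H3K27ac island of the other 6 lists. These, too, were open in early KO alone, each at an adjusted p of 0.0165.

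The other 7 of the leading 10 had the same pattern, 0 kb in all 6 other libraries, and an adjusted p of 0.0165. The region chr8:108787001-108789200 had 1.8 kb in both early KO libraries, and chr18:61926601-61928800 had 1.6 kb in both. There were 1.2 and 1.8 kb at chr7:17557801-17560600, 1.2 and 2.0 kb at chr18:35996801-35999400, and 1.2 and 1.4 kb at chr18:32701401-32703400. The narrow region chr10:95566801-95568400 had 1.4 kb in both. In H3K27ac, 8 of the 10 ranked at percentile 38.0 or lower in both lists. The other 2 are chr16:10936001-10940400, with 1.2 and 1.8 kb of DNase islands and percentiles of 55.2 and 43.1, and chr14:64025401-64030600, at 44.4 and 35.9.

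Among regions open in both early KO lists and in neither early WT list, those ranked highest in H3K27ac began with chr5:33243601-33248400. This 4.8-kb region stood at percentiles 51.8 and 43.6 and had 0.8 and 0.6 kb of DNase islands in early KO, with none in the other 6 libraries (adjusted p = 0.0192). It was followed by the regions on chromosomes 16 and 14 just named. The region chr1:161668601-161672600, at 44.8 and 32.9, had 0.6 kb in both early KO libraries (adjusted p = 0.0169). The replicates of chr2:91480201-91485200 disagreed, with 2.2 and 0.2 kb in early KO and none in early WT, and the region was not called (adjusted p = 0.254).

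**Figure D5:**
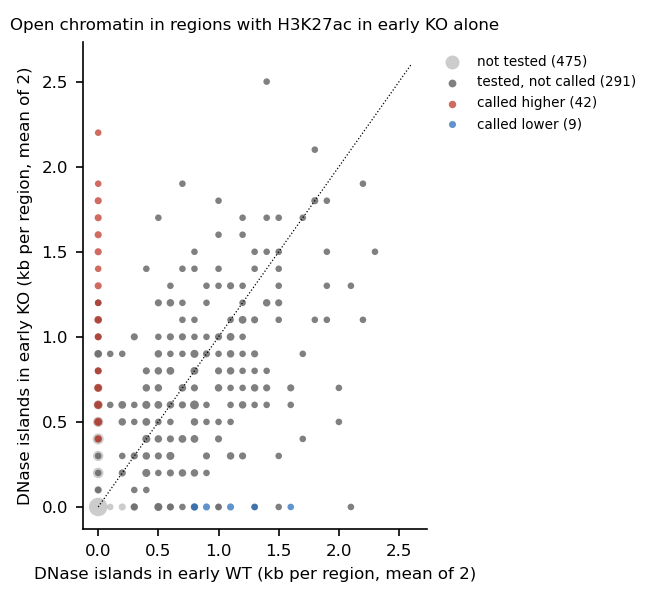
DNase islands per region in early KO (vertical axis, kb, mean of 2 libraries) against early WT (horizontal axis, kb, mean of 2) for the 817 regions, with larger points where more regions coincide and a dotted line of equal coverage. The 42 regions called higher all lie at 0 in early WT and the 9 called lower all lie at 0 in early KO.

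The 9 regions called lower averaged 1.03 kb in early WT and had none in either early KO list, nor in any late list (adjusted p from 0.0165 to 0.0340). The calls depended on single libraries. Without early KO replicate 1 or 2, 1 of the 42 regions called higher still met the filter, so their loss there was fixed in advance. The 9 called lower had islands in the early WT pair alone, so without either early WT library they did not meet the filter. When early KO replicate 1 or any early WT or late KO library was left out, all calls were lost. This held over all regions tested and was not particular to the 817. With an early WT or late KO library left out, all 42 stayed higher in early KO than early WT. Their median log2 change then ran from 2.45 to 2.72. Without early KO replicate 2, calls lower in early KO outnumbered those higher, over all regions as in the 817.

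In late cells, 3 of the 817 regions were called higher in KO than in WT, against 0.665% of all regions tested, and 9 lower, against 7.88%. The 3 had a mean of 1.43 kb in late KO and no island in late WT, and the 9 had none in late KO and a mean of 1.02 kb in late WT. With no filter, 2 were called higher, against 0.334%, and 1 lower, against 3.9%. At equal list length, 10 were called higher, against 3.6%, and 2 lower, against 3.14%. Neither late WT replicate 1 nor late WT replicate 2 could be left out with these calls kept, since 0 and 1 regions were then called. Leaving out early KO replicate 1 gave 24 calls and early KO replicate 2 gave 22, and leaving out any other library gave 3 or 4.

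Between the stages, the 817 regions held fewer DNase islands late than early in both genotypes. In KO cells 87 were called lower late than early, against 8.22% of all regions tested, and none higher, against 0.352%. The 87 had no island in late KO and a mean of 1.05 kb in early KO. Of these, 41 had islands in the early KO pair alone and passed the filter only through it. In WT cells 34 were called lower late than early, against 3.32%, and none higher, against 1.12%. The 34 had no island in late WT and a mean of 1.09 kb in early WT. Of the 34, 12 had islands in the early WT pair alone and passed the filter only through it. For both genotypes the share among regions tested is therefore no measure. No region had an unadjusted p under 0.05 in the higher direction in either genotype. With no filter, 56 of all 817 (6.85%, against 4.28%) were called lower in KO and 18 (2.20%, against 1.94%) in WT, so the WT share was then near that of all regions. None was called higher there, against 0.159% in KO and 0.696% in WT. At equal list length, under the same filter, 39 were called lower in KO, against 4.39%, and 2 higher, against 3.27%. In WT 8 were called lower, against 3.49%, and 1 higher, against 3.03%. The share of the regions tested is no measure there either.

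Of the 87, 41 were also among the 42 called higher in early KO than early WT, and the comparisons share the early KO libraries. The 87 averaged 0.499 kb in early WT, where 41 were at 0 in both lists. Regions called lower late than early in both genotypes numbered 22, and these averaged 1.20 kb in early KO and 1.14 kb in early WT. They include chr7:35919001-35926200 and chr4:100733801-100736400, both described above, with adjusted p-values of 0.0106 and 0.0164 in KO cells and 0.0287 and 0.0170 in WT cells. The 34 WT calls were lost when any early WT, late KO or late WT library was left out, and WT calls grew without either early KO library. With an early WT library left out, 12 of the 34 could not meet the filter, so their loss there was fixed in advance. The 87 KO calls fell most when a late KO library was left out. With an early KO library left out, 41 of the 87 could not meet the filter, so their loss there was also fixed in advance.

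Whether the KO effect itself changed with time was tested as the interaction in the same fit. It was called in 24 of the 817 regions, with 17 lower late than early, against 3.14% of all regions tested, and 7 higher, against 1.63%, and 72 had an unadjusted p under 0.05. With lists of equal length, 110 of the 817 were tested, under the same filter. Of these, 25 were called lower, against 3.06% of all regions tested, and 5 higher, against 3.55%. No region of the 817 was called with quantile normalization, a pseudocount of 1 kb, no filter or the replicate block, nor with any 1 library left out other than early KO replicate 2. Without early KO replicate 2 the split turned, with 2 called lower and 18 higher. All 10 leading regions of the early comparison were among the 17. They had DNase islands in the early KO pair alone, so without either early KO library they did not meet the filter. The DNase lists of late KO were the shortest of all, and their part in the late values was not tested apart from the comparison at equal list length.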

How the data were processed

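H3K27ac ChIP-seq and DNase-seq lists of 8 libraries each were used. The tools named in the submitters' processing notes are CASAVA 2.18, Bowtie2 and SICER 1.1, and the build is mm9. The deposited lists hold each island's position and a score, the authors' value from the caller, called library by library. No counts come with them, so depth is unknown and no interval is given. The score was used only to rank islands within a list. Replicates are those of the labels, which do not say whether they were separate cultures or animals, so p-values reflect no more than how far these samples differ, which may be technical.

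The 817 regions, the named regions and the tests were chosen with earlier results of these data known. DNase kb per region were fitted as log2(kb + 0.2) with limma 3.58.1 in R 4.3.3 (lmFit, eBayes with trend, 2-sided), for all 4 groups at once and without a block, over regions with an island in at least 2 of 8 libraries. Libraries were centred on the median of regions covered in all 8. P-values were adjusted over all regions tested. In simulated data of 25850 regions with 200 changed in early KO, 0% were recovered at a log2 change of 1, 15.5% at 2 and 83.5% at 3. Values were drawn from normal distributions, and the changed regions were of middle to high mean coverage. These rates therefore do not apply to regions at 0 in most libraries. Named regions are the 10 of highest percentile (the lower of both early KO lists), the 5 widest, the first 10 called in early KO by adjusted p, and the 5 of highest percentile with DNase islands in both early KO and neither early WT list. Overlaps and figures used Python 3.11.15, numpy 2.4.6, pandas 2.3.3 and matplotlib 3.10.9. Same-numbered KO and WT libraries deviated with a correlation of 0.04 (early) and 0.01 (late), and the labels share only a number. No mm9 genome or annotation was used here, so genes, markers and sequences were not analysed here. Alternatives were other scalings, lists of equal length, each list's upper 50%, a pseudocount of 1 kb, no filter, regions widened by 1 kb, a replicate block, and each library left out.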

Additional observations from a re-analysis of the deposited data

Results flagged for a closer look

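In 10 regions the interaction term of the limma fit, late KO effect against early KO effect, passed Benjamini-Hochberg adjustment over 25850 regions. These are the leading early calls. In each the early KO libraries held DNase islands and the other 6 libraries held none, and the late difference is 0.391 in all 10, which comes from centring alone. The term therefore restates the early difference and is no separate evidence of a change with time, and its size depends on the pseudocount of 0.2 kb. The difference of late KO minus late WT, less that of early KO minus early WT, was −3.29 on the log2(kb + 0.2) scale at chr1:157953801-157956400, −3.22 at chr8:108787001-108789200, −3.15 at chr14:64025401-64030600 and −3.13 at chr1:121285601-121288200. The values were −3.07 at chr18:61926601-61928800, −3.04 at chr18:35996801-35999400, and −2.97 at both chr7:17557801-17560600 and chr16:10936001-10940400. They were −2.90 at chr10:95566801-95568400 and −2.81 at chr18:32701401-32703400. The adjusted p-values lay between 0.0378 and 0.0383. No interaction was called in any of the 817 regions with quantile normalization, a pseudocount of 1 kb, no filter or the replicate block, where 35, 58, 70 and 73 of them had an unadjusted p under 0.05. The same held when any library other than early KO replicate 2 was left out, with 37 to 84 at an unadjusted p under 0.05. Without early KO replicate 2 the calls turned to 18 higher and 2 lower, where the fit of all libraries gave 7 higher and 17 lower. The 10 regions did not meet the filter without either early KO library, so that turn leaves them out. At equal list length, 5 were called higher, against 3.55% of all regions tested, and 25 lower, against 3.06%. Equal length levels the number of islands and not the depth, which is unknown.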

How the results depend on the processing

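The lists hold islands without counts, so what depth could detect is unknown, and 2 libraries a group leave calls open to single libraries. The number of regions with H3K27ac in early KO alone was 817, against 314 in the upper 50% of each list, and 820 to 2004 with 1 library left out, the highest without early KO replicate 2. Other alternatives gave 603 to 901. For the fits, the cause of each change was not tested. Leaving out 1 library gave 0 to 1682 calls over all regions for early KO against early WT and 0 to 3887 for late KO against late WT, where the fit of all libraries gave 1008 and 2208. For the 817 regions it gave 0 to 54 calls early, 0 to 24 late, 15 to 99 for late against early KO and 0 to 81 for late against early WT, where the fit of all gave 51, 12, 87 and 34. Each count of 0 came with 32 or more regions at an unadjusted p under 0.05.

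Over all regions, quantile normalization gave 92 calls early and 293 late, and the 1-kb pseudocount 368 and 606. Equal list length gave 1170 late calls. Early calls over all regions divided into 350 higher and 658 lower in early KO, against 641 and 548 at equal list length, 335 and 984 without centring, 234 and 922 in the upper 50%, 86 and 6 with quantile normalization, and 196 and 172 with the 1-kb pseudocount. The majority thus turned at equal list length, with quantile normalization and with the 1-kb pseudocount. Late calls divided into 172 higher and 2036 lower in late KO, against 625 and 545 at equal list length, where the majority turned, and 60 and 233 with quantile normalization. Centring alone raised KO minus WT in regions with no DNase island by 0.29 early and 0.39 late (log2).

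For the 817 regions, quantile normalization gave 14 calls early (14 higher), and 0 late, 0 for late against early KO and 0 for late against early WT (23, 64 and 49 at an unadjusted p under 0.05). The upper 50% of each list gave 23, 1, 25 and 9 calls in that order, and the 1-kb pseudocount 23, 3, 27 and 11. Equal list length gave 41 for late against early KO and 9 for late against early WT, and its early count was 46, with 42 higher and 4 lower. Late calls there were 10 higher and 2 lower, against 3 higher and 9 lower in the lists as deposited, so the direction of that split turned. Without early KO replicate 2 the early split also turned. Of the 42 regions higher in early KO, 1 could then be tested, so their loss there was fixed by the filter. No filter gave 3 late calls, 56 for late against early KO and 18 for late against early WT. The comparisons over time were put through these alternatives after the data were seen. Of the 42 regions higher in early KO, 8 could be tested at equal list length and all 8 were called, 22 were called with the 1-kb pseudocount, and 40 with the replicate block.

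With the replicate block, 669 regions were called early over all regions, and for the 817 regions 3 late and 21 for late against early WT, while their early count was 45. The replicate numbers do not pair the libraries, since they share only a number.

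The mean share of the 817 regions with a DNase island was 40.2% ± 18.6 in early KO and 31.8% ± 3.12 in early WT (SD, n = 2 each), against 14.5% (early KO) and 6.00% (early WT) at equal length and 12.4% and 7.71% in the upper 50%. In late KO it was 6.61% ± 0.346 and in late WT 13.3% ± 5.28 (SD, n = 2 each), against 5.88% (late KO) and 3.67% (late WT) at equal length and 1.102% and 3.49% in the upper 50%. The order of the late groups thus turned at equal length, where late KO was above late WT. With 1 library left out, the shares are those of the remaining library. Named regions have a value only under alternatives in which they met the filter. The leading early calls thus have none without either early KO library, and most have none at equal list length or in the upper 50%. Of 234 values for single named regions under alternatives, 181 kept their side of the threshold, 52 lost the call and 1, chr4:100733801-100736400 at equal list length, gained it.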
